A study of Mus musculus with 3 samples.

Results

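Foxd3 is a forkhead transcription factor of pluripotent cells, and Nodal is a secreted ligand of the TGF-beta family that pluripotent cells make and respond to. The sites described here are all listed Foxd3 peaks in 3 windows of the mm9 genome around 4 genes of that pathway: Nodal, Lefty1, Lefty2 and Tdgf1. The windows are chr10:60780000-60990000 (Nodal), chr1:182720000-182970000 (Lefty2 and Lefty1) and chr9:110740000-110950000 (Tdgf1). A peak belongs to the set when it overlaps a window. That gave 9 peaks, 3 of the 3406 in the HA list and 6 of the 4569 in the Flag list, with 7975 peaks in all. The windows were chosen by gene, and selected on the presence of peaks near those genes in these same lists. Their counts, widths and positions are therefore given as a description, without tests.

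The series holds 3 samples of mouse embryonic stem cells from 1 line: a chromatin precipitation with an anti-HA antibody, one with an anti-Flag antibody, and an input of total genomic DNA. All carry the same alteration, an added Foxd3 with Flag and HA tags that was brought into LF2 cells by a lentivirus, selected with neomycin and made at close to the endogenous level. The cells grew without feeders in 15% serum with LIF, and no other genotype, treatment or time was compared. Each antibody has 1 library and both read the same tagged protein, so replicate error cannot be measured. The tagged protein is not the cells' own Foxd3, no precipitation from untagged cells was analysed here, and the lists hold no expression values with which to check the cell type. The lists give positions only, so read depth and peak height are unknown, and a site in neither list may still have had signal below the authors' threshold.

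Nodal signals through activin receptors and Smad2 and Smad3, with Foxh1, itself a forkhead protein, as one of their partners on DNA. Tdgf1, also called Cripto, is the membrane-anchored co-receptor that Nodal needs. Lefty1 and Lefty2 are secreted inhibitors that Nodal signalling itself induces, so ligand, co-receptor and inhibitors form a feedback circuit. In embryonic stem cells all of these genes are known targets of the pathway.

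Of the 4 genes, Tdgf1 is the one with a peak at its start within the accuracy of the positions used. Starts of genes outside these 4 were not placed. Tdgf1 is read from the minus strand, and its start lies at about 110.849 Mb of chromosome 9 (mm9), known only to the nearest kb. The bases before that start are therefore shown first. They come from the RefSeq promoter table on another build, GRCm38.p6 (chr9:110946159-110946408, minus strand), and end at the last base before the start. Both the HA and the Flag peak begin close to this stretch, but whether they cover it cannot be settled at kb accuracy. Capitals mark matches to AATNNACA, a loose form of the Foxh1 site.

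Tdgf1 promoter: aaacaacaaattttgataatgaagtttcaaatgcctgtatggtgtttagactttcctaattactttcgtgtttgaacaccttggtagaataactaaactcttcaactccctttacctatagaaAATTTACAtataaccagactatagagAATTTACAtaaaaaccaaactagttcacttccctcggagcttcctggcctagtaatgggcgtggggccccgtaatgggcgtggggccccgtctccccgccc

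This stretch of 250 bases held 2 matches to AATNNACA, which begin 127 and 101 bases before the start. Of the 32851 promoter stretches of that length in the table, 10.9% held at least 1 such match on either strand. The share with at least 2 matches was not counted. That share was not matched for base composition. The Tdgf1 stretch had 42% G and C, against a median of 52.4%, and 15.9% of stretches had less. The fixed letters of AATNNACA are mostly A and T. The 4 forkhead words searched had no match on either strand of the Tdgf1 stretch. These were TGTTTAC (held by 3.17% of all stretches), TGTTTGC (held by 4.30%), TGTTTGT (held by 5.84%) and TATTTAC (held by 2.73%). There was also no match to AATCCACA (0.718% of all stretches), a stricter form of the same site, nor to the Smad word GTCTAGAC (0.167%), the octamer ATGCAAAT (1.60%), the Sox word AACAATG (3.29%) or TATAAA (12.4%). The same stretch before Nodal, whose peak lies elsewhere, matched none of the words. These matches describe letters in 1 short window. They say nothing about the DNA under the peaks, which was not read because no mm9 genome was used here. The table gave a promoter for 2 of the 4 genes, Tdgf1 and Nodal, and not for Lefty1 or Lefty2.

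Each of the 3 windows had the same make-up, 1 site listed with both antibodies and 1 further peak listed with Flag alone. The 3 sites of both antibodies lay over or just before the start of Tdgf1, about 2 kb before Nodal, and between Lefty2 and Lefty1. No listed peak overlapped the approximate extents of Nodal (60.881 to 60.888 Mb) or Tdgf1 (110.842 to 110.849 Mb), but these are rounded to the kb, so a short overlap at the Tdgf1 start cannot be told from none. Of the HA peaks of the set, 3 of 3 overlapped a Flag peak by at least 1 bp, against 73.3% of the whole HA list. With the HA list cut into blocks of 10% of its lines, the share was higher in the blocks of these peaks. It was 97.1% for the block of Tdgf1 and 91.5% for that of Lefty and Nodal. With blocks of 10% by width instead, it was 78.3% for the block of Tdgf1 and Nodal and 81.8% for that of Lefty. Of the Flag peaks, 3 of 6 overlapped an HA peak, against 54.7% of the whole Flag list. With so few peaks the exact binomial 95% intervals ran from 29.2 to 100% for HA and from 11.8 to 88.2% for Flag, for counting error only. The same 3 sites enter both counts, and the windows were selected on peaks. The intervals therefore cannot compare the set with the whole lists.

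**Figure D1:**
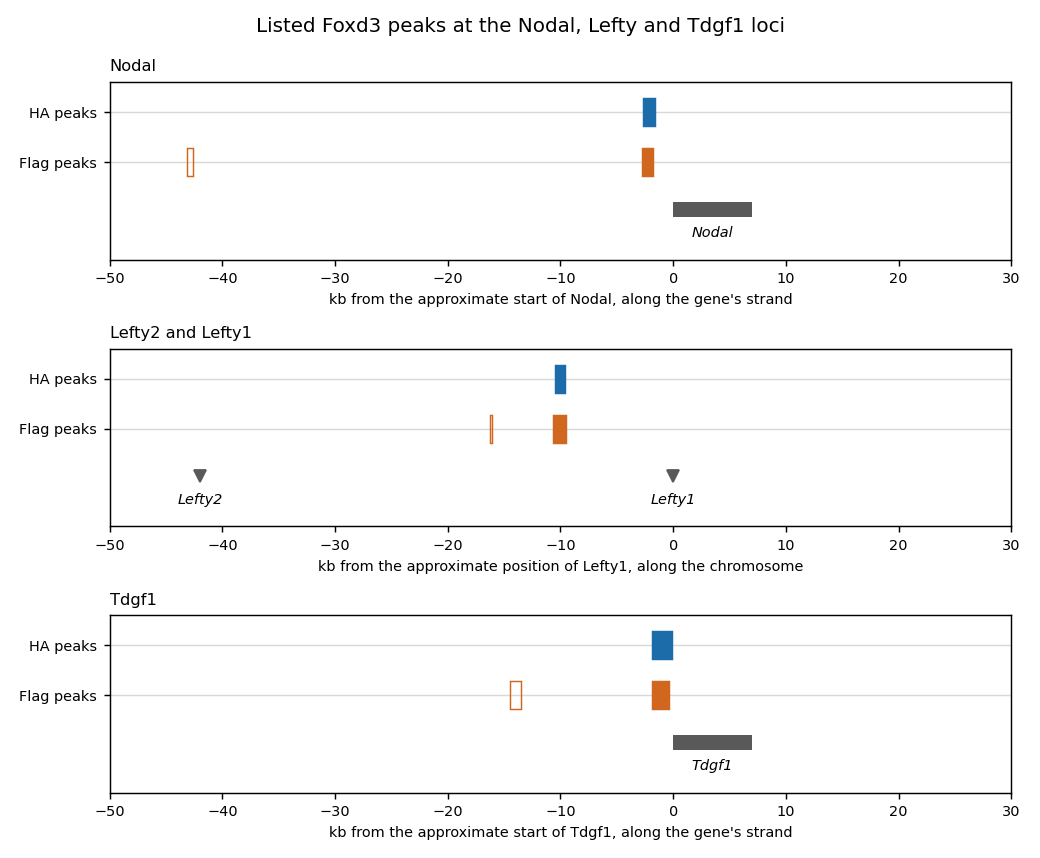
Peaks of the HA list (blue) and the Flag list (orange) in the Nodal, Lefty and Tdgf1 windows, by distance in kb from the approximate mm9 start of Nodal or Tdgf1 along the gene's strand, or from the approximate position of Lefty1 along the chromosome. Filled boxes overlap a peak of the other list and open boxes (the narrow one at the Lefty locus is 214 bp) do not; grey bars are approximate gene extents and grey triangles single gene positions. In each window 1 site is in both lists and 1 peak is in the Flag list only.

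At Nodal, the ligand, the HA peak lay at chr10:60878360-60879351 and the Flag peak at chr10:60878245-60879226. Nodal is read from the plus strand in the promoter table, so both ended about 2 kb before its start, outside the 250 bases searched. The HA peak measured 992 bp and the Flag peak 982 bp, the closest match in width of the 3 sites. They were staggered: Flag began 115 bp earlier and HA ended 125 bp later. The stretch common to both was 867 bp, from 60878360 to 60879226, which is 87.4% of the HA peak and 88.3% of the Flag peak. In protein-coding gene order on GRCm38.p6, Nodal is flanked by Pald1 and Eif4ebp2. Neither gene's distance to the peak is known here.

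The other peak of the Nodal window was a Flag peak of 568 bp at chr10:60837857-60838424, about 43 kb before Nodal. The nearest HA peak was the one beside Nodal, 39.9 kb away. This Flag peak lay on the side of Nodal where Pald1, Prf1 and Adamts14 follow in gene order, and it was assigned to none of them.

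At the Lefty genes, which encode the inhibitors, the shared site lay between the pair. The HA peak was at chr1:182854560-182855388, 829 bp wide, and the Flag peak at chr1:182854328-182855477, 1150 bp wide. The whole HA peak was inside the Flag peak, which began 232 bp earlier and ended 89 bp later. Both peaks were about 10 kb from the Lefty1 position (182.865 Mb). From the Lefty2 position (182.823 Mb) the HA peak was about 32 kb away and the Flag peak about 31 kb. The site was assigned to neither gene. No listed peak inside this window lay closer to Lefty2 than to Lefty1.

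A second Flag peak at this locus lay 5.37 kb from the shared one, at chr1:182848742-182848955. It was 214 bp wide, and 36 of the 4569 Flag peaks were narrower. It stood about 16 kb from the Lefty1 and 26 kb from the Lefty2 position, with no HA peak over it. The HA peak of the locus was 5.60 kb away. A gap of 20 kb or less to another peak of the list was found for 22.5% of all Flag peaks.

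At Tdgf1, the co-receptor, the HA peak was at chr9:110849111-110850892 and the Flag peak at chr9:110849344-110850883. Both extended from about the start of the gene away from its body, with a gap to the rounded start of 0 kb. The HA peak was 1782 bp wide and held the whole Flag peak of 1540 bp. The edges far from the gene were 9 bp apart, while on the side of the gene HA reached 233 bp further. In gene order Tdgf1 is flanked by Fam240a and Lrrc2.

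The Flag list had another peak at this locus, of 959 bp, at chr9:110862536-110863494, about 14 kb before the Tdgf1 start. It lay 11.6 kb from the HA peak at the start. It was wider than 92.2% of all Flag peaks and wider than 95.4% of the 2072 Flag peaks with no HA partner. Lrrc2, Rtp3 and Ltf come next in gene order on that side, and the peak was assigned to none of them.

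**Figure D2:**
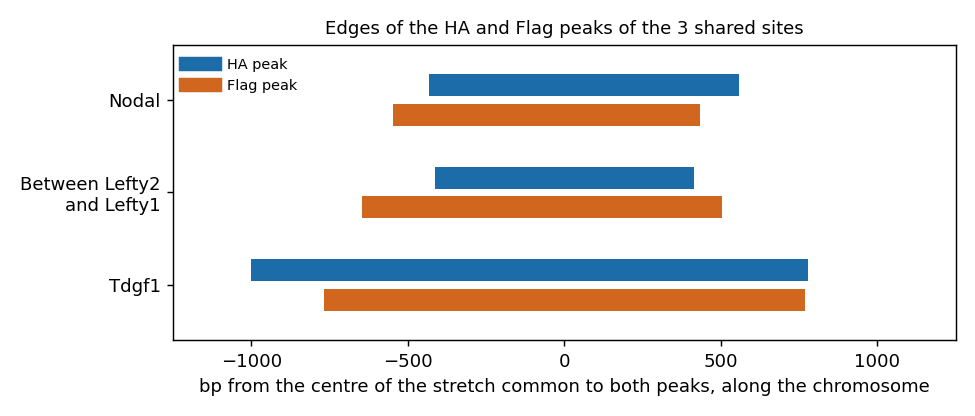
Extent of the HA peak (blue) and the Flag peak (orange) at each of the 3 sites found with both antibodies, in bp from the centre of their common stretch along the chromosome. The Flag peak lies inside the HA peak at Tdgf1 (1540 in 1782 bp), the HA peak lies inside the Flag peak between the Lefty genes (829 in 1150 bp), and the edges are staggered at Nodal (992 and 982 bp).

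The 3 shared sites thus showed 3 arrangements of their edges. Among the 2474 pairs of 1 HA and 1 Flag peak in the whole lists, 26.5% had Flag inside HA as at Tdgf1, 24.4% had HA inside Flag as between the Lefty genes, and 49.1% were staggered as at Nodal. The centres of the 2 peaks were 71.5 bp apart at the Lefty site, 112 bp at Tdgf1 and 120 bp at Nodal. The median over all pairs was 50.5 bp, so all 3 lay above it, and 81.8% of pairs had closer centres than the Nodal pair. The common stretch was long at each site, at 829 bp between the Lefty genes, 867 bp at Nodal and 1540 bp at Tdgf1, against a median of 476 bp. As a share of the length covered by either peak it was 72.1%, 78.3% and 86.4%, on both sides of the median of 76.4%. Centre distance and common length were compared with all pairs, not with pairs of like width. The peaks of these 3 pairs were wider than most in each list.

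Width is the only size the lists give. The HA peaks of the set measured 829, 992 and 1782 bp, and all 3 exceeded the HA median of 547 bp. Of all HA peaks, 84.8% were narrower than the Lefty peak, 91.9% were narrower than the Nodal peak and 99.7% were narrower than the Tdgf1 peak, which ranked 10 from the widest. The shared Flag peaks measured 982 bp at Nodal, 1150 bp between the Lefty genes and 1540 bp at Tdgf1, and the Flag-only peaks 214, 568 and 959 bp. In the Flag list 92.8%, 96.1% and 98.7% of peaks were narrower than the shared Nodal, Lefty and Tdgf1 peaks, and the Flag median was 490 bp. Of the 6 Flag peaks, 5 exceeded that median, the Flag-only peaks of the Nodal and Tdgf1 windows among them. The 3 shared Flag peaks of the set were wider than its 3 Flag-only peaks, with little between the shared Nodal peak (982 bp) and the Flag-only Tdgf1 peak (959 bp). Over the whole Flag list shared peaks were wider too, with medians of 548 bp for shared and 407 bp for Flag-only peaks.

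Tdgf1 had the widest peak of the set with either antibody. Only 2 of the 2474 pairs were wider in both lists than the Tdgf1 pair, against 81 for the Lefty pair and 114 for the Nodal pair. The order of the other 2 sites depended on the antibody, with Nodal wider than Lefty in HA and Lefty wider than Nodal in Flag.

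The line numbers of the lists, whose order the files do not explain, placed Tdgf1 first as well. Its HA peak stood on line 316 of 3406 and its Flag peak on line 388 of 4569. In the HA list the Lefty peak followed on line 687 and the Nodal peak on line 1021. In the Flag list Nodal came before Lefty, on lines 1163 and 1950. The Flag-only peaks stood later, on line 2607 for the Tdgf1 window, 4158 for Lefty and 4203 for Nodal. The Lefty and Nodal ones lay in the last 10% of the lines, where 30.5% of Flag peaks had an HA partner. The Tdgf1 one lay in a block of 10% of the lines where 54.7% had one.

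**Figure D3:**
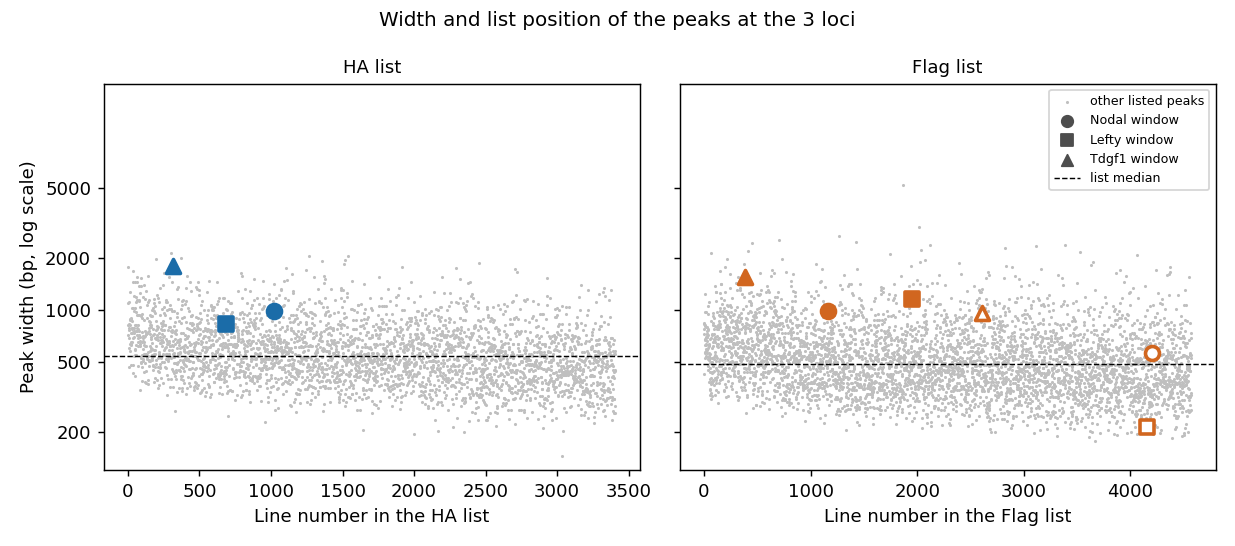
Peak width in bp (log scale) against line number for every peak of the HA list (left) and the Flag list (right), in grey, with the peaks of the Nodal (circles), Lefty (squares) and Tdgf1 (triangles) windows in colour. Filled symbols overlap a peak of the other list and open symbols do not; dashed lines are the list medians, 547 bp for HA and 490 bp for Flag. The 3 HA peaks lie above the median, and the 3 Flag-only peaks come after the 3 shared ones.

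Each window held 1 HA and 2 Flag peaks. Tiles of 210 kb held means of 0.274 HA and 0.367 Flag peaks, and tiles of 250 kb 0.326 and 0.437. The windows were selected on peaks near the genes, so counts above these means are a description only. Among tiles of 210 kb laid along each chromosome, 20.1% held at least 1 HA peak and 7.85% held at least 2 Flag peaks, the counts of the Nodal and the Tdgf1 window. For the Lefty window of 250 kb the shares were 22.9% and 9.73%. With windows and tiles of 50% of the length, which still held all 9 peaks, the HA shares were 11.2% for Nodal and Tdgf1 and 13.0% for Lefty. The Flag shares were then 3.02% and 3.71%. The HA peak at Tdgf1 was 623 kb from the next HA peak and the one at the Lefty genes 317 kb, whereas the median gap over the HA list was 126 kb. In the Flag list each peak had its nearest neighbour inside its own window, 39.8 kb away at Nodal, 5.37 kb at the Lefty genes and 11.7 kb at Tdgf1, all below the Flag median gap of 88.3 kb. The HA peak at Nodal was 99.3 kb from its nearest neighbour in the list.

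That neighbour lay just outside the window and was itself a wide site of both antibodies, with an HA peak of 1069 bp at chr10:60778021-60779089 and a Flag peak of 1011 bp at chr10:60778048-60779058. The HA peak ended 0.911 kb and the Flag peak 0.942 kb before the edge. No other peak came as close to an edge from outside. The next was a Flag-only peak of 307 bp at chr1:183014180-183014486, 44.2 kb past the Lefty window. Just inside, the peak nearest to an edge was the 568 bp Flag peak of the Nodal window, 57.9 kb from it.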

How the data were processed

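The authors deposited 1 peak list for each antibody, with 3 columns (chromosome, start, end) in mm9, per the submitters' processing notes for the build. Not given in the sources used here: aligner, caller of the peaks, its threshold and what the input was used for. No file of the input sample was used. Per the labels' protocols, DNA of 200 to 700 bp was selected and amplified for 18 cycles, which limits how finely edges are placed. Starts were converted to 1-based positions. Overlap meant at least 1 bp, and its counts were equal to those of bedtools 2.31.1. Approximate mm9 gene positions came with the choice of windows. Gene order and promoters came from RefSeq tables on GRCm38.p6, used for names and letters only. The overlap and motif code was tested on simulated data. The code ran in Python 3.11.15 with pandas 2.3.3, scipy 1.17.1, numpy 2.4.6 and matplotlib 3.10.9. Every peak of the set was named. The members, motifs and alternatives were chosen with earlier results of these data known. Other genes of the pathway were given no value, because no mm9 annotation was used here.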

Additional observations from a re-analysis of the deposited data

How the results depend on the processing

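No result had a test. Of 58 alternative values, 15 moved by more than 1.5 times a count or left the interval of a share, and none of the median widths moved by more than 1 SD of the widths. For the shares of 3 and 6 peaks those intervals are so wide that staying inside them shows no stability. Most of the moved values were shares of tiles after a change of window and tile length. For these a small change could count as moved, such as 9.73 to 10.7% for Lefty in Flag. With centres within 100 bp as the rule, 1 HA and 1 Flag peak of the set, the Lefty pair, stayed shared. That took the shared share from 100 to 33.3% in HA and from 50 to 16.7% in Flag. The share of the whole lists under this rule was not computed. Of all 2474 pairs, 64.8% had closer centres than the Lefty pair (71.5 bp) and 79.7% closer than the Tdgf1 pair (112 bp). In the first 50% of the lines the Flag list kept 3 peaks of the set, of which 100% were shared. The share of all Flag peaks in those lines was not computed. In the blocks of 10% of the lines that held these peaks it was 63.7% (Tdgf1), 67.6% (Nodal) and 62.6% (Lefty). With windows of 50% of the length, 11.2% (HA) and 3.02% (Flag) of tiles held as many peaks as the Nodal and Tdgf1 windows, and 13.0% and 3.71% as many as the Lefty window. Windows of 200% of the length held 4 HA and 8 Flag peaks, so some of their shares are for higher counts than in the main windows. The shares were 12.6% (HA) and 8.23% (Flag) for Nodal, 33.5% and 18.0% for Tdgf1, and 37.8% and 10.7% for Lefty. No paired analysis was possible because HA and Flag have a single library apiece, and for the same reason no replicate could be left out. Without read counts, weak signal missing from a list cannot be bounded.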

Other observations

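The Tdgf1 promoter stretch holds a unit of 19 bases repeated head to tail, GTAATGGGCGTGGGGCCCC, printed in capitals in full because all of it repeats. The 2 copies run from 50 to 13 bases before the start (RefSeq, GRCm38.p6). A head-to-tail unit of this length or more occurred in 0.557% of the 32851 stretches. It was looked for after the sequence had been seen.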
